A study of Mus musculus with 5 samples.

Results

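The 37 genes described here encode proteins that copy DNA and its chromatin during S phase: Mcm2, Mcm4, Mcm5, Mcm6, Cdc6, Cdc45, Gins2 and Gmnn, which license origins and form or control the replicative helicase; Pcna, Pola1, Prim1, Pold3, Rfc2, Rpa2 and Dscc1, which belong to the polymerases, the sliding clamp, its loaders and the single-strand binding complex; Tyms, Rrm1 and Rrm2, which supply nucleotides; Tipin, Clspn, Exo1, Blm, Brip1, Ung, Usp1 and Dtl, which protect forks and repair DNA; Uhrf1, Hells, Nasp, Chaf1b, Atad2, Slbp, Ubr7, Wdr76 and Cdca7, most of which handle histones, chromatin or DNA methylation at or after the fork; and Ccne2 and E2f8, which control the entry into and the course of S phase. They were chosen by name as a set of S-phase genes, with earlier results of these data known, and all 37 were found among the 24411 gene rows of the table. They were followed in single cells from the blood of the heart of wild-type C57BL/6 mouse embryos at embryonic day 9.5 (E9.5, 2 batches) and day 10 (E10, 3 batches). No group carried a transgene or received a treatment. Cells that lacked TER119, CD41, CD43 and CD45 at the surface were sorted, so that cells with these blood-cell antigens were gated out. Single cells were then picked by hand. By the series' title, the question was which cells other than blood cells circulate in the embryo. Each transcript was counted once by a unique molecular identifier (UMI), with a modified STRT-seq protocol that reads one end of the transcript. Whether separate litters gave the batches is not stated in the labels. In comparisons of the stages, p-values measure the spread between these batches. In comparisons of kinds of cell, they measure the spread that remains once shifts shared by a whole batch are taken out. Either spread may in part be technical.

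Before a cell divides, the MCM proteins are loaded on origins by the licensing machinery, in which Cdc6 acts and which geminin (Gmnn) restrains. At the start of S phase, Cdc45 and the GINS complex turn the loaded MCM ring into a moving helicase, DNA polymerase alpha with its primase starts each strand, and PCNA holds the later polymerases on the template. Most of these genes are transcribed in late G1 and S phase under the E2F transcription factors, and E2F8 is among the factors that later shut them off. Embryonic blood and mesenchyme divide fast, whereas neurons leave the cell cycle as they differentiate. Cdkn1c, which is named beside several results, encodes the cyclin-dependent kinase inhibitor p57.

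The start regions of several members carry the E2F consensus, and those stretches are shown because the members are the textbook targets of these factors. RefSeq promoters (GRCm38.p6, the mm10 assembly named in the submitters' processing notes), taken from 250 bases before to 50 bases after each start, were matched for 27 of the 37 members. The letters searched were TTTCCCGC, TTTCGCGC, TTTGCCGC and TTTGGCGC on both strands, and TTTCGCGC and TTTGGCGC can overlap each other on opposite strands. A match was present for 11 of 27 members (40.7%), against 704 of 27025 genes (2.61%) with windows of the same length. Among the other gene lists used below, 14 of 41 further replication genes (34.1%), 7 of 19 cell cycle control genes (36.8%) and 3 of 46 G2 and M phase genes (6.52%) held one. A match is a string of letters and not a measured binding site. For Clspn, Pold3 and Ubr7 the letters lie downstream of the start. The stretches around the matches upstream of the start of the other 8 members read as follows, 5′ to 3′ on the strand of the gene, with the matched letters in capitals.
Mcm6 (chr1:128359725-128359835, minus strand): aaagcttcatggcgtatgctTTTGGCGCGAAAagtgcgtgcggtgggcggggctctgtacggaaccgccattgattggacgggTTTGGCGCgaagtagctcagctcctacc
Mcm5 (chr8:75109336-75109387, plus strand): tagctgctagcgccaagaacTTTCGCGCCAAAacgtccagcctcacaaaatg
Cdc6 (chr11:98907993-98908040, plus strand): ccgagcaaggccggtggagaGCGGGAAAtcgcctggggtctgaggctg
Pola1 (chrX:93632266-93632313, minus strand): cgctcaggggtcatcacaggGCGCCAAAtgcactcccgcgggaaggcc
Hells (chr19:38930918-38930945, plus strand): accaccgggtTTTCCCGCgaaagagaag
Uhrf1 (chr17:56304108-56304155, plus strand): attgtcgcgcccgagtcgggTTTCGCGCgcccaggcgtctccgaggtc
Cdca7 (chr2:72476128-72476175, plus strand): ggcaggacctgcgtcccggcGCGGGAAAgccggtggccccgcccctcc
Dtl (chr1:191575545-191575572, minus strand): atcagaaagcgtgacgtcagTTTGGCGC
Mcm5 carries 2 overlapping matches in opposite orientation, and Mcm6 carries 3, of which 2 overlap in the same way.

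Of 480 columns, 294 held at least 1000 genes and 30000 UMIs and were kept, from 26 to 87 in a batch, with a median of 308924 UMIs per cell (31294 to 1407021). The cells are a mixture, and they were split into kinds by the level of 1 or 2 marker genes, in CPM (a gene's UMIs scaled to a total of 1000000). These kinds are ranges on a marker and not cell types called by the authors. The 46 Alas2 cells (Alas2 at 400 CPM or more) express the haem synthesis enzyme of red cells and had a median of 18.6% haemoglobin UMIs. The 14 Gfi1b and Myb cells (both at 30 CPM or more) express 2 regulators of blood progenitors. The 30 Sox10 cells (50 CPM or more) express the neural crest factor, the 19 Tubb3 cells (150 CPM or more) the neuronal tubulin, the 20 Dppa5a cells (500 CPM or more) an early-embryo gene, and the 112 Prrx1 cells (100 CPM or more) a factor of limb and facial mesenchyme. The remaining 53 cells passed no cut. In the Prrx1 cells Col3a1 reached a median of 431 CPM, and in the Tubb3 cells Elavl4 reached 603 CPM, whereas Ptprc (CD45) had a median of 0 in every kind. Haemoglobin made up a median of 0.865% of UMIs in Prrx1 cells, so haemoglobin UMIs were also present in cells of other kinds. A total of 32 cells passed more than 1 cut, among them 13 that passed those for Dppa5a and Prrx1 and 11 that passed those for Sox10 and Tubb3. Each was placed by the order in which the kinds are given here. Thus 13 of the 20 Dppa5a cells also passed the Prrx1 cut and are not counted as Prrx1 cells. The 11 cells that passed the Sox10 and Tubb3 cuts, and 1 more that also passed the Dppa5a cut, are counted as Sox10 cells.

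Within single cells, the summed level of the 37 genes was lowest in the Tubb3 and Sox10 cells. The median sum was 1665 CPM (404 to 10576) in Tubb3 cells and 3457 CPM (608 to 11864) in Sox10 cells. It was 4260.3 CPM (839 to 6167) in Alas2 cells, 4753 CPM (720.4 to 8312) in cells that passed no cut, 5519 CPM (1252 to 11262) in Prrx1 cells, 5558 CPM (2669 to 10514) in Dppa5a cells and 5978 CPM (4460.3 to 7444) in Gfi1b and Myb cells. The ranges overlap between all 7 kinds, and the Tubb3 cells hold both the lowest sum and a sum near the highest. The Tubb3 median rests on E10 replicate 3, which gave 10 of the 19 cells, and was 3491 CPM without that batch. The Dppa5a cells all came from E10 replicate 1 and enter no comparison, since their kind and their batch cannot be told apart.

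**Figure D1:**
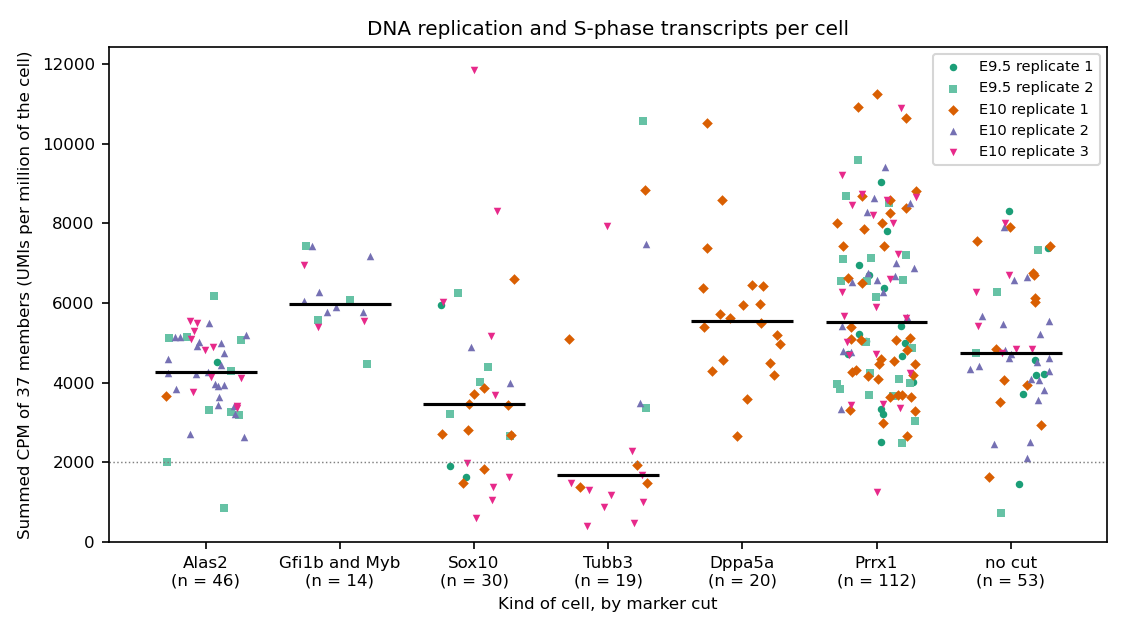
Summed CPM of the 37 S-phase genes (vertical axis) in each of the 294 cells, by kind of cell (horizontal axis); points are cells coloured by batch, black lines are medians and the dotted line is at 2000 CPM. Of the Tubb3 cells 11 of 19 and of the Sox10 cells 9 of 30 lie under the dotted line, and the Gfi1b and Myb cells all lie above it.

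Some of the Tubb3 and Sox10 cells had low sums. A line at 2000 CPM was set after the values were seen, with 8 cells between 1500 and 2000 CPM and 6 between 2000 and 2500 CPM. Below it lay 11 of 19 Tubb3 cells (57.9%, exact 95% binomial interval 33.5 to 79.7%) and 9 of 30 Sox10 cells (30%, 14.7 to 49.4%). Only 1 of 112 Prrx1 cells (0.893%), 1 of 46 Alas2 cells (2.17%) and 3 of 53 cells without a cut (5.66%) lay below it, and none of the 14 Gfi1b and Myb cells or the 20 Dppa5a cells did. These intervals cover the counting of cells and not the spread between batches. Of the 11 low Tubb3 cells, 8 came from the 10 of E10 replicate 3 and 3 from the 5 of E10 replicate 1, and the 2 cells each of E9.5 replicate 2 and E10 replicate 2 were all above the line. The low Tubb3 cells had a median of 303374 UMIs and the others 288519, and in Sox10 cells the medians were 292987 and 253331. The 3 low cells without a cut were shallower, with a median of 78008 UMIs against 289606. The low Tubb3 cells also held little of 52 G2 and M phase genes, with a median sum of 1825 CPM against 12561 CPM in the other Tubb3 cells, and the low Sox10 cells held 2351 CPM against 8563 CPM. Cdkn1c had a median of 5572 CPM in the low Sox10 cells and 1813 CPM in the other Sox10 cells, whereas in Tubb3 cells the order was the opposite, 1055 CPM in the low cells and 3026 CPM in the others.

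Comparisons between kinds were made on sums of UMIs over the cells of 1 kind in 1 batch, with at least 3 cells in a sum, so that a batch and not a cell is the replicate. Levels below are CPM after scaling by the trimmed mean of M values (TMM), a weighted mean of log ratios between sums with extreme genes left out. The median log2 fold change of all genes need not be 0 after it, and is given for each comparison with Prrx1 cells. Each kind was set against the Prrx1 cells with the batch as a block, and all these comparisons share the Prrx1 sums. A gene passed at an adjusted p under 0.05 in the quasi-likelihood test of edgeR, with the Benjamini-Hochberg method over all 14988 genes tested, and all 37 members were among them. In simulated counts of the Alas2 design, 37 of 50 genes raised 4-fold were called and 5 of 50 raised 2-fold, so that a 2-fold change was often missed. Across the sums, the heat map shows the Sox10 and Tubb3 sums below the gene mean for most members.

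**Figure D2:**
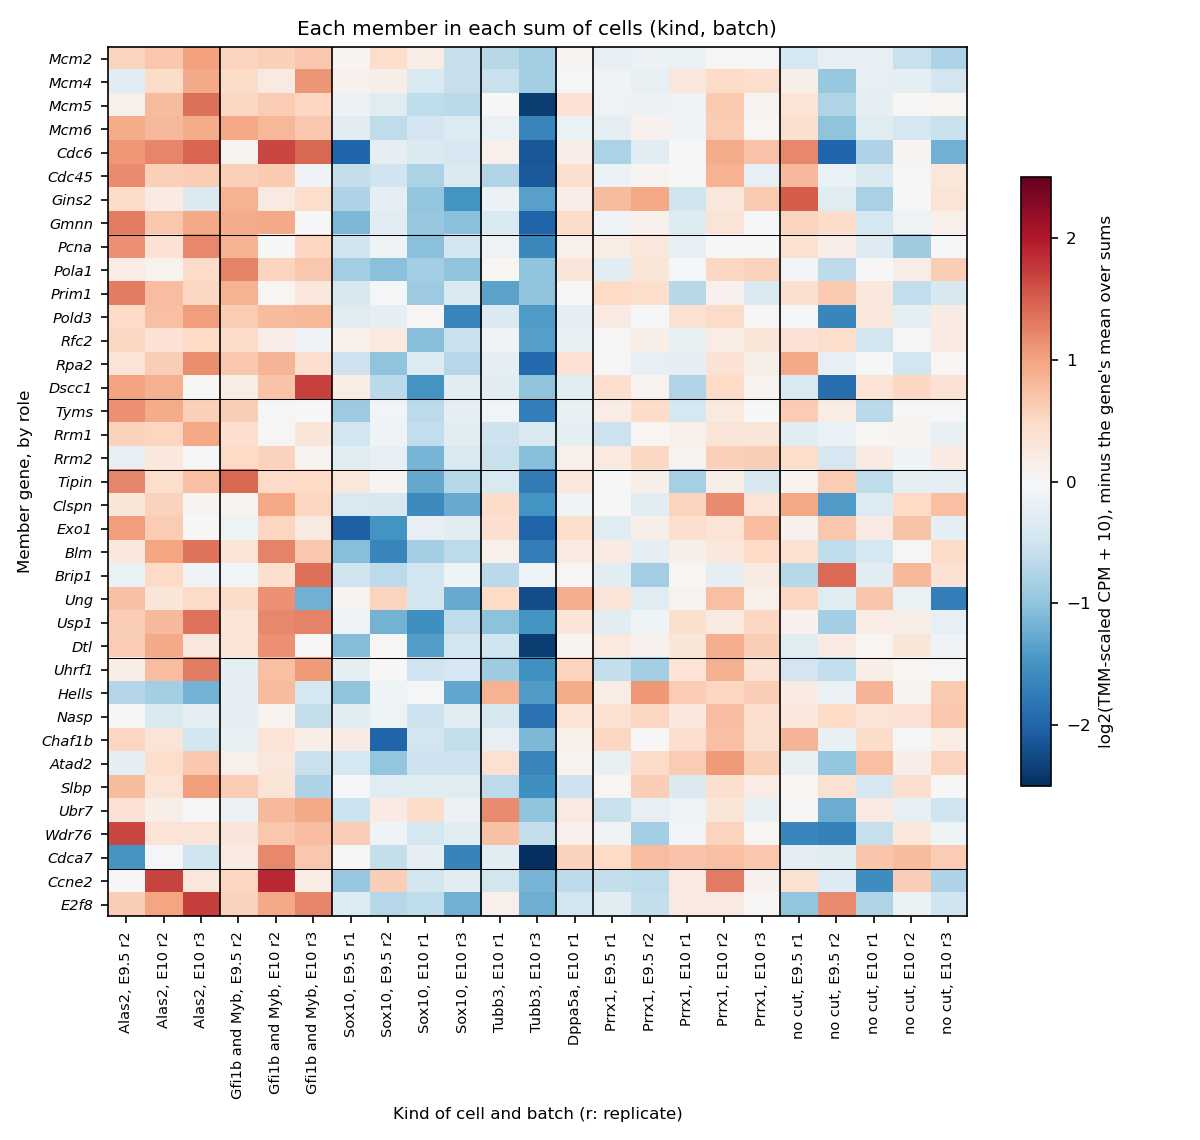
Heat map of log2(TMM-scaled CPM + 10) minus the gene's mean over all sums, for the 37 members (rows, by role) in 23 sums of cells (columns, by kind and batch). The Tubb3 sum of E10 replicate 3 is low in most rows, and Hells, Nasp and Cdca7 are low in the Alas2 sums where most other members are not.

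Alas2 cells, which carry erythroid transcripts, differed from Prrx1 cells in which replication genes they held. Of the 37 members, 7 were higher and 2 lower (of all genes tested, 14.7% passed, 7.39% as higher and 7.29% as lower). Those higher were helicase and licensing genes (3 of 8), polymerase and clamp genes (2 of 7) and fork genes (2 of 8), while the 2 lower ones were among the 9 chromatin genes, and none of the 3 nucleotide genes passed. The 7 higher calls depend on TMM: with sums scaled to their total UMIs, or to the total without haemoglobin genes, none was higher and 4 were lower. The TMM factors of the Alas2 sums were 0.588 to 0.659. The median log2 fold change over the members was 0.70 with TMM (all genes −0.28), −0.15 with total UMIs (all genes −1.02) and 0.09 with the total without haemoglobin (all genes −0.81). Relative to the median of all genes it was 0.98, 0.86 and 0.90 under these 3 scalings. The members' summed level in Alas2 sums was 6987 ± 561 CPM (SD, n = 3) with TMM and 4279.7 ± 251 CPM of total UMIs. In Prrx1 sums it was 5534 ± 806 and 5972 ± 689 CPM (n = 5), so the order of the 2 means turned with the scaling. The sum gives each member its own level as weight. Nasp, the member with the highest mean, had 349 CPM over Alas2 cells and 987 CPM over Prrx1 cells with total UMIs. The share of haemoglobin UMIs moved with this contrast (12.9 to 18.9% in the 3 Alas2 sums, 0.0374 to 5.32% in the 5 Prrx1 sums). Its part in the result was examined only by alternatives that left those genes out of the counts, with TMM or with total UMIs.

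**Figure D3:**
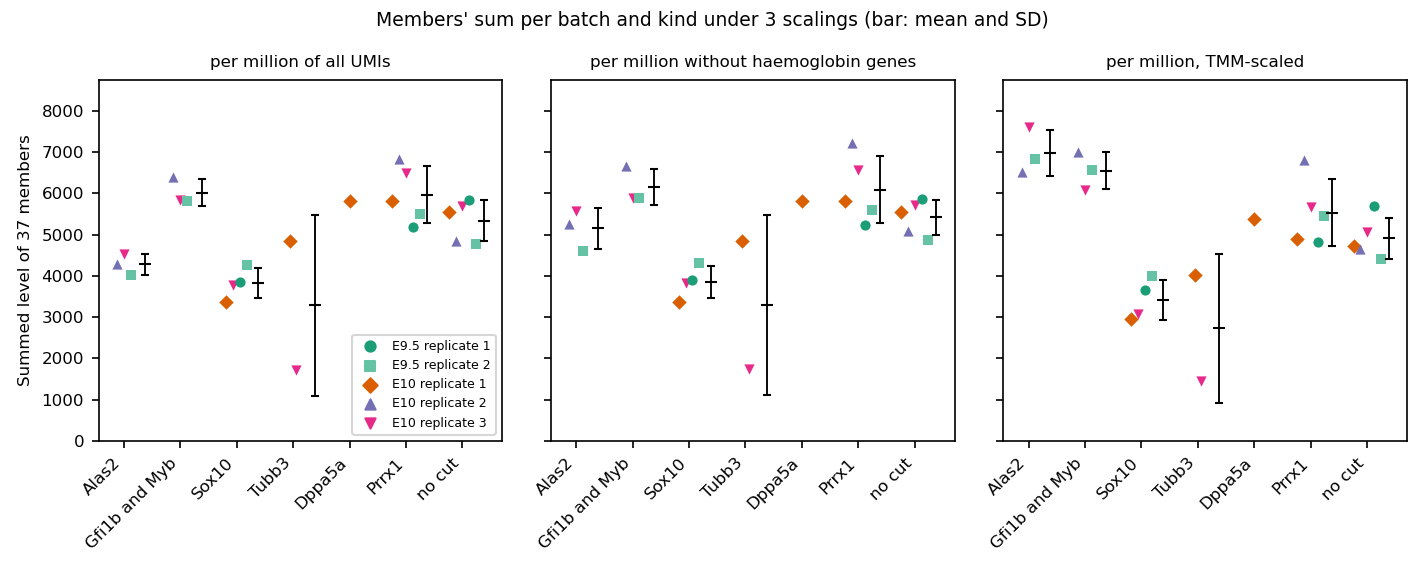
Summed level of the 37 members in CPM (vertical axis, from 0) for each sum of cells by kind, under 3 scalings: total UMIs, total UMIs without haemoglobin genes, and TMM. Points are batches, lines and bars are mean and SD; The mean of the Alas2 sums lies below that of the Prrx1 sums with total UMIs and above it with TMM, where in E10 replicate 2 the Alas2 sum (6520.2 CPM) is below the Prrx1 sum (6819.6 CPM).

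Hells, a chromatin remodeller needed for DNA methylation, was the member with the steadiest difference. It stood at 105, 96.7 and 75.2 CPM in the Alas2 sums (E9.5 replicate 2, then E10 replicates 2 and 3), and at 399, 271 and 285 CPM in the Prrx1 sums of those batches. The 2 sets do not overlap. Its log2 fold change was −1.61 (SE 0.34, edgeR adjusted p = 0.000424), and it passed in all 17 alternative analyses, from −2.42 to −1.43, both total-UMI scalings included. Nasp, a histone chaperone, was at 682, 522 and 566 CPM against 962, 1149 and 899 CPM, again without overlap (log2 fold change −0.69, SE 0.23, edgeR adjusted p = 0.0298), and passed in 13 of 17 alternatives. Cdca7, which works with Hells, was at 23.6, 80.2 and 55.7 CPM against 149, 147 and 139 CPM, with a log2 fold change of −1.33 that missed the threshold (edgeR adjusted p = 0.0543). Of the 9 chromatin genes 2 passed as lower and 5 had log2 fold changes above 0. Uhrf1, which reads hemimethylated DNA, had a log2 fold change of 0.70 that did not pass.

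The members that passed as higher under TMM had log2 fold changes between 0.91 and 1.01. Tipin, a fork protection factor, was at 433, 248 and 311 CPM in Alas2 sums against 198, 198 and 134 CPM in Prrx1 sums (log2 fold change 1.01, SE 0.30, edgeR adjusted p = 0.0123). Pcna, the sliding clamp, was at 603, 349 and 629 CPM against 329, 268 and 269 CPM, so that every Alas2 sum lay above every Prrx1 sum (0.94, SE 0.27, edgeR adjusted p = 0.0102). Mcm2 was at 299, 324 and 419 CPM against 181, 205 and 192 CPM (0.94, SE 0.27, edgeR adjusted p = 0.00936). The others were Gmnn with 1.01, Rpa2, a subunit of the single-strand binding complex, with 0.93, Mcm6 with 0.91 and Usp1, a deubiquitinase of PCNA, with 0.91. None of these 7 passed when sums were scaled to total UMIs, and none changed sign in any alternative. Without E10 replicate 3 no member was called higher and 3 were called lower, and without E9.5 replicate 2 the counts were 2 higher and 1 lower. Mcm5 (0.87), Ccne2 (0.44), Clspn (−0.03) and Rrm2 (−0.44) did not pass. Among 48 further replication genes 6 were higher and none lower, led by the flap endonuclease Fen1 at 309 ± 34.9 CPM (n = 3) against 105 ± 21.7 CPM, with a log2 fold change of 1.78 (edgeR adjusted p = 3.14e-05) that also passed with total UMIs (0.97). Of the G2 and M phase genes, 7 of 52 were higher and none lower, among them Mki67, with 1.46 under TMM and 0.65 with total UMIs, the second of which did not pass.

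The Gfi1b and Myb cells, which express progenitor regulators, had few members that passed against Prrx1 cells. Under TMM 3 of 37 were higher and 1 lower (16.6% of all genes passed, 6.83% as higher and 9.78% as lower), and with either total-UMI scaling none was higher and 1 lower. The median log2 fold change of the members was 0.49 (all genes −0.43), and 29 of the 37 were above 0. With total UMIs it was 0.27 (all genes −0.64). Tipin was at 500.1, 253 and 256 CPM in the sums of the same 3 batches (0.99, SE 0.30, edgeR adjusted p = 0.0145), and its lowest value lay above the 198 CPM of the highest Prrx1 sum of those batches. Mcm6 was at 465, 426 and 378 CPM against 254, 370.3 and 240.4 CPM (0.83, SE 0.28, edgeR adjusted p = 0.031). Mcm2 had a log2 fold change of 0.77 (SE 0.27, edgeR adjusted p = 0.0385). Nasp was again the low member, at 577, 712 and 442 CPM (−0.74, SE 0.23, edgeR adjusted p = 0.0175). The fixed examples Mcm5 (0.59), Pcna (0.49), Rrm2 (−0.05), Clspn (0.19), Uhrf1 (0.47) and Ccne2 (0.66) did not pass. The number of members called ran from 0 without E9.5 replicate 2 to 5 without E10 replicate 1. Of the further replication genes 7 of 48 were higher, among them Mcm10 (1.48), which helps to start the helicase, and the origin subunit gene Orc2 (1.04). The G2 and M phase genes gave 4 higher and 1 lower of 52, the last being G2e3 (−1.63).

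Set against each other, the 2 kinds with blood-lineage markers showed no member that passed. In Alas2 against Gfi1b and Myb cells 0 of 37 members were called by edgeR's quasi-likelihood test and 0 by DESeq2, with 3 at an unadjusted p under 0.05, and 276 genes (1.84%) passed in all, 1.39% as higher and 0.454% as lower. The 3 were Cdca7 (−1.49, 23.6 to 80.2 CPM against 97.9 to 204 CPM), Hells (−1.11, 75.2 to 105 CPM against 133 to 324 CPM) and Tyms (0.72), the thymidylate synthase. With total UMIs Cdca7, Hells and Rrm2 were called lower in Alas2 cells, and the members' median moved from 0.12 to −0.46. Each kind has 3 sums in the same 3 batches.

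Sox10 cells, which carry the neural crest factor, held less of most members than Prrx1 cells. All 8 members that passed were lower, with none higher, against 3.15% of all genes that passed (1.81% as higher and 1.34% as lower). The log2 fold change was below 0 for 34 of the 37, with a median of −0.80 (all genes −0.10) and −0.74 with total UMIs. The 8 came from 5 roles: 3 chromatin genes, 2 fork genes and 1 each for the helicase, the polymerases and nucleotide supply. Neither control gene passed. Of the Sox10 cells, 11 also passed the Tubb3 cut and 1 more those for Tubb3 and Dppa5a. With only cells that passed 1 cut, 3 members were called in place of 8. Hells was at 85.8, 168, 179 and 68.2 CPM in the Sox10 sums of E9.5 replicates 1 and 2 and E10 replicates 1 and 3, and at 209, 399, 291 and 285 CPM in the Prrx1 sums. Every Sox10 value lay under every Prrx1 value, with a log2 fold change of −1.30 (SE 0.30, edgeR adjusted p = 0.00628). Rrm2, the regulated subunit of ribonucleotide reductase, was at 227, 243, 121 and 213 CPM against 334, 410.1, 299.6 and 437 CPM (−0.91, SE 0.24, edgeR adjusted p = 0.0185), also without overlap. Pola1, the catalytic subunit of polymerase alpha, was at 24.8, 20.5, 25.1 and 21.7 CPM against 42.6, 67.6, 51.6 and 84.7 CPM (−1.49, SE 0.42, edgeR adjusted p = 0.035). The Pola1 values were tight in the Sox10 sums and all below those of Prrx1 cells. The remaining members that passed were Gins2 (−1.83), the helicase Blm (−1.49), the chromatin ATPase Atad2 (−1.19), Usp1 (−1.09) and Nasp (−0.75).

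Not every member was low in Sox10 cells. Mcm2, at 209.7, 275, 228 and 129.9 CPM against 171, 181, 176 and 192 CPM, had a log2 fold change of 0.16, and Wdr76 and Ubr7 had 0.28 and 0.21. Clspn, the checkpoint mediator, had a large but scattered difference (−1.37, edgeR adjusted p = 0.0912), and Mcm5 (−0.50), Pcna (−0.72), Uhrf1 (−0.19) and Ccne2 (−0.12) did not pass. Hells passed in 16 of 17 alternatives and missed only in the fit without the batch as a block (edgeR adjusted p = 0.114). Leaving out 1 batch left 2 to 5 members, fewest without E9.5 replicate 2. Of the further replication genes 4 were lower and none higher, among them Mcm10 (−1.84), and 4 G2 and M phase genes were lower, among them Cdc20 (−1.50). Cdkn1c was higher, at 1179.9, 3793, 2099 and 3353 CPM against 219, 274, 295 and 250.4 CPM (3.36, SE 0.27, edgeR adjusted p = 9.62e-14). The 7 neuron markers fixed for the check summed to a median of 468 CPM in Sox10 cells (2.14 to 9188) and 73.5 CPM in Prrx1 cells (0 to 826). Their part in the lower replication genes was not tested.

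Tubb3 cells had the lowest median of the members against Prrx1 cells, and the comparison rests on 2 sums, of 5 cells in E10 replicate 1 and 10 cells in E10 replicate 3, which differed from each other. Of 37 members 5 were lower and none higher (4.68% of all genes passed, 2.18% as higher and 2.5% as lower), 35 of 37 log2 fold changes were below 0, and their median was −1.02 (all genes −0.20). The members' summed level was 4013 CPM in the sum of E10 replicate 1 and 1457 CPM in that of E10 replicate 3. The Prrx1 sums of these batches were at 4892 and 5674 CPM. On total UMIs the Tubb3 sum of E10 replicate 1 was at 4839 CPM. Its 5 cells had a median of 1917 CPM (1376 to 8833), so the sum lay above its typical cell. Uhrf1 was at 96.9 and 59.5 CPM against 242 and 243 CPM (−1.57, SE 0.38, edgeR adjusted p = 0.00772). Usp1 was at 50.7 and 34.4 CPM against 154 and 167 CPM (−1.74, SE 0.42, edgeR adjusted p = 0.00773), so both of these were low in both batches. Cdca7 was at 67.8 and 2.13 CPM against 143 and 139 CPM (−2.67, SE 0.66, edgeR adjusted p = 0.009), and most of its fold change came from E10 replicate 3. Nasp was at 504 and 179 CPM against 810.0 and 899 CPM (−1.43, edgeR adjusted p = 0.000835), and Rrm2 at 189 and 129.6 CPM against 299.6 and 437 CPM (−1.14, edgeR adjusted p = 0.0283). Mcm5, at 209 and 31.7 CPM against 188 and 218 CPM, and Hells, at 341 and 61.9 CPM against 291 and 285 CPM, were low only in the sum of E10 replicate 3 and did not pass. Without E10 replicate 3 no member was called, and without E10 replicate 1 there were 20, with the remaining Tubb3 sum taken to vary like the other kinds.

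Genes of the other phases were also low in Tubb3 cells. Of 52 G2 and M phase genes 29 were lower and none higher, with a median log2 fold change of −1.60, among them the mitotic kinase gene Nek2 and Cdca2, a chromosome-bound phosphatase subunit, with means of 0.850 and 1.85 CPM over the 2 sums. The fold change of Nek2 had the opposite sign in 1 of 17 alternatives. Of 48 further replication genes 9 were lower, among them Dbf4 (−2.94), the activating subunit of the kinase that fires origins, and Cdt1 (−2.03), a licensing factor. The inhibitor genes Cdkn2d (2.81) and Cdkn1c (2.53) were higher, and Cdkn1c stood at 568 and 2440.1 CPM in the 2 sums. The neuron markers summed to a median of 5251 CPM in Tubb3 cells (481 to 17135), and their part in these values was not tested. Against Sox10 cells directly, 0 of 37 members were called by edgeR (84 genes, 0.56%, passed, 0.227% as higher and 0.334% as lower), 4 had an unadjusted p under 0.05 (Mcm2, Uhrf1, Nasp and Cdca7), and DESeq2 called 1, Uhrf1 (−1.25). With only cells that passed 1 cut 10 members were called, and without E10 replicate 1 there were 5. Whether the kinds differ in the members thus depends on which cells and batches enter. In all, 4 G2 and M phase genes were lower in Tubb3 than in Sox10 cells, among them Ube2c (−1.79), which drives ubiquitination in mitosis and whose fold change ran from −2.71 to 0.53 over 17 alternatives, with the opposite sign in 2.

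**Figure D4:**
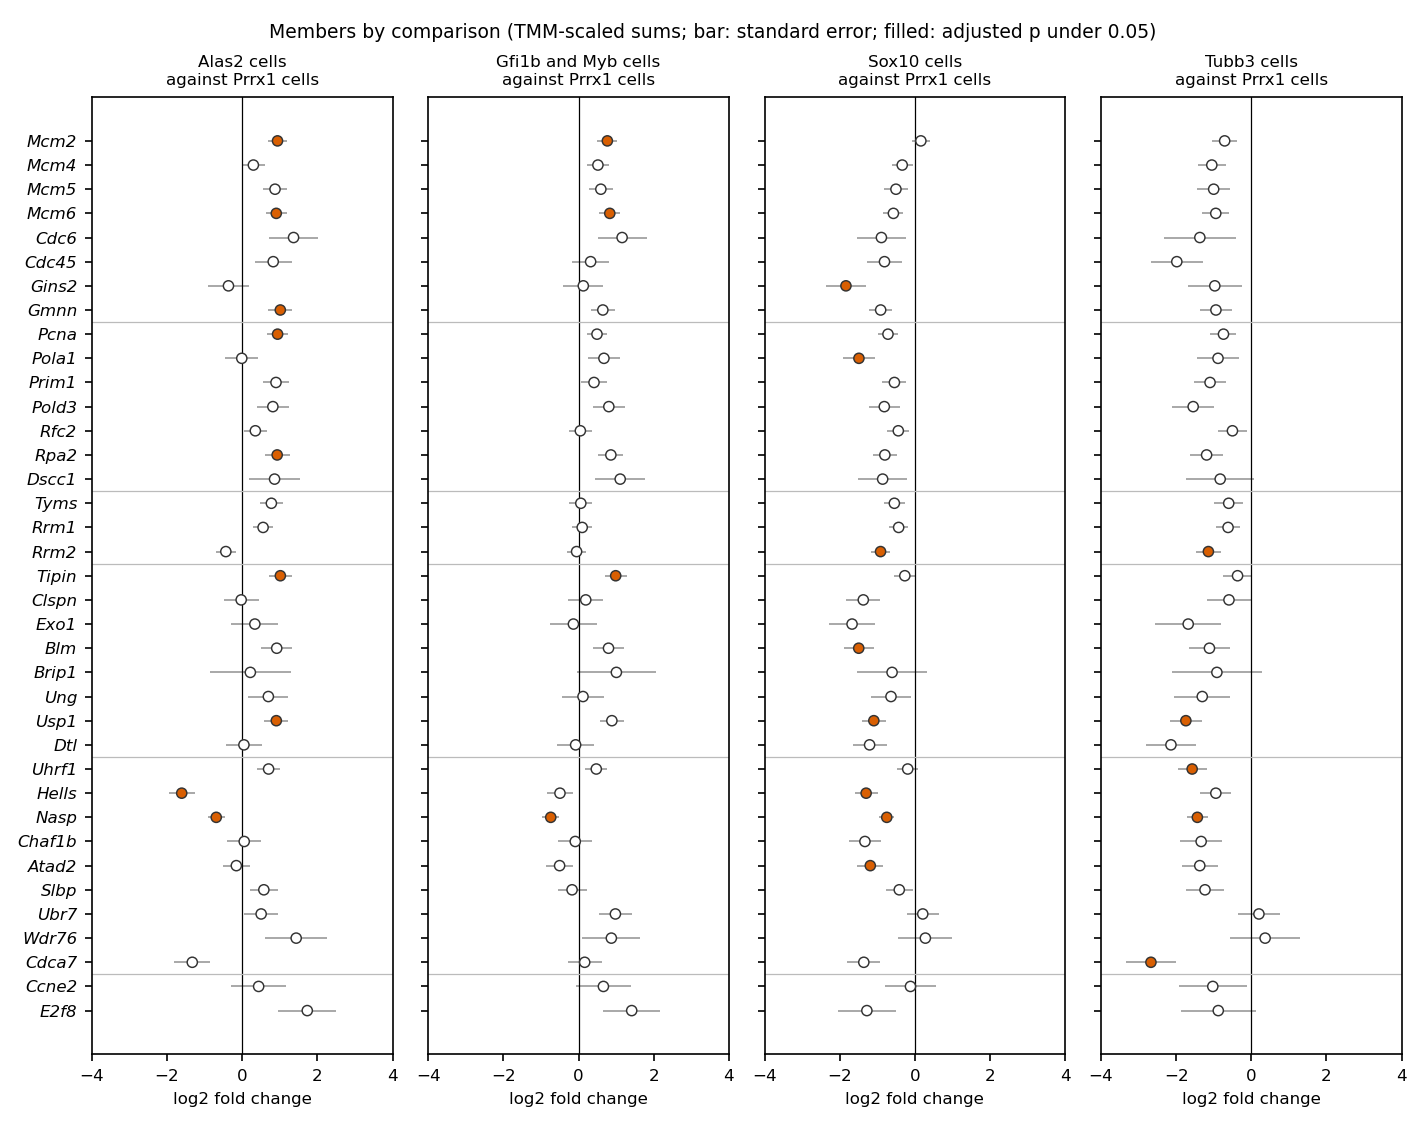
Log2 fold change against Prrx1 cells (horizontal axis) with its SE for each of the 37 members (rows, by role) in 4 panels, for Alas2, Gfi1b and Myb, Sox10 and Tubb3 cells; filled points passed at an adjusted p under 0.05. Nasp is filled on the low side in all 4 panels, which share the Prrx1 sums, and Hells in the Alas2 and Sox10 panels.

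Nasp is the member that passed as lower than in Prrx1 cells in each of the 4 comparisons, with log2 fold changes of −0.69, −0.74, −0.75 and −1.43. Its 5 Prrx1 sums lay between 810.0 and 1149 CPM and the 12 sums of the 4 kinds between 179 and 712 CPM. The single Dppa5a sum was at 858 CPM. All 4 comparisons use the same Prrx1 sums, so they are not independent, and Nasp missed the threshold in 2 to 7 of the 17 alternatives in each.

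With all kept cells pooled the members moved together, and how they moved with the G2 and M phase genes differed between kinds. Over all 294 cells the median Spearman rho between pairs of members was 0.26 (666 pairs), and 99.8% of the pairs were above 0. Within kinds the median ran from 0.08 in Gfi1b and Myb cells, with 59.6% of the pairs above 0, to 0.44 in Tubb3 cells. Rrm2 (0.70) and Pcna (0.65) followed the sum of the other members most closely, and Rfc2 (0.23), a subunit of the clamp loader, least. The sum of the members followed that of the 48 further replication genes (0.87) and, over all cells, hardly the depth of the cell (0.10). Within kinds, the members' sum had a rho with depth from −0.14 in Tubb3 cells to 0.34 in Alas2 cells. With the sum of the G2 and M phase genes it had a rho of 0.72 in the 19 Tubb3 cells and 0.70 in the 30 Sox10 cells, but −0.15 in 112 Prrx1 cells, 0.04 in 46 Alas2 cells, −0.17 in 14 Gfi1b and Myb cells and −0.21 in 20 Dppa5a cells. In the first pair of kinds, cells high in 1 list tended to be high in the other, as the plot of both sums by kind shows. The split was not complete. Sox10 cells with a members' sum of 2000 CPM or more held 1931 to 23636 CPM of G2 and M phase genes. Those below held 1730 to 3802 CPM. In Tubb3 cells these ranges were 2258 to 26517 CPM and 1263 to 4308 CPM. These are descriptions over cells that share libraries and scaling, and their difference was not tested.

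**Figure D5:**
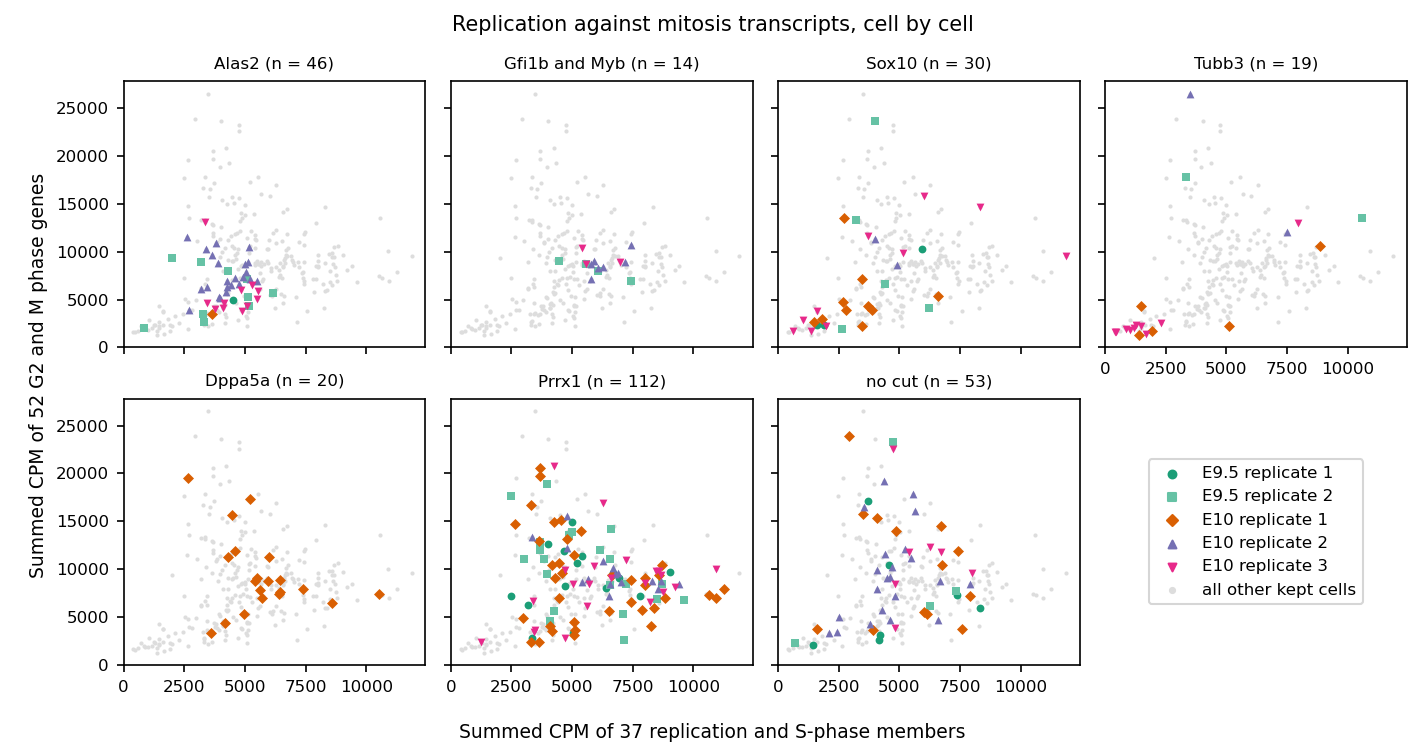
Summed CPM of the 37 members (horizontal axis) against that of 52 G2 and M phase genes (vertical axis) in each cell, 1 panel per kind; coloured points are cells of that kind and grey points are all other kept cells. In the Tubb3 and Sox10 panels a cluster of cells lies near the origin, where the Prrx1 panel has few.

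Genes outside the set whose levels were most like the members' sum over the 294 cells, among genes with a mean of at least 20 CPM, included Lig1 (rho 0.65), 2810417H13Rik (0.61; a synonym of Pclaf, a PCNA-binding protein), Tk1 (0.58), Mcm7 (0.56), Mcm3 (0.55), Ccne1 (0.55) and Dek (0.52). Lig1 seals nicks in the new strand, Tk1 acts in nucleotide supply, and Mcm3 and Mcm7 are the helicase subunits that the set lacks beside Mcm2, Mcm4, Mcm5 and Mcm6.

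Between E9.5 and E10 no difference passed the test. Over all kept cells, 0 of 14103 genes passed (0%), and no member did. At an unadjusted p under 0.05 there were 3 of 37 members (Gins2 with −1.03, Prim1 with −0.77 and Uhrf1 with 0.75), beside 1119 of the 14103 genes, a similar share. DESeq2 called 86 genes and no member. The mixture of kinds differs between batches, so the stages were also compared within Prrx1 cells, where 0 of 11488 genes (0%) passed, 5 members and 1131 genes in all had an unadjusted p under 0.05, and DESeq2 called 95 genes with 1 member, Uhrf1. The levels that follow were scaled within this stage fit and so differ slightly from those of the fit over kinds. In the Prrx1 cells Uhrf1 was at 132 and 109 CPM in the E9.5 batches and at 261, 383 and 264 CPM in the E10 batches. Its log2 fold change was 1.32 (SE 0.30, edgeR adjusted p = 0.473) and 1.30 by DESeq2. Ccne2, the cyclin that acts at the G1 to S transition, was at 11.5 and 11.1 CPM and then at 28.4, 71.5 and 25.4 CPM (1.88). Clspn was at 76.5 and 61.6 CPM and then at 114, 182 and 97.4 CPM (0.92). Pcna was at 334 and 361 CPM and then at 249, 287 and 292 CPM, and Mcm5 (206 and 203 CPM, then 203, 355 and 236 CPM) and Rrm2 (366 and 450.1 CPM, then 323, 459.8 and 474 CPM) overlapped between the stages. How often the batches of the 2 stages lie apart was not counted over all genes. Levels that lie apart for single members are therefore no stage result, and 0% of all genes passed the test. With 2 batches against 3, and stage and batch inseparable, these levels are a description.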

How the data were processed

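UMI counts per gene and cell were deposited by the authors as 1 table; reads were processed with CASAVA 1.8, TopHat2 2.0.12 and HTSeq on mm10, per the submitters' processing notes. Cell barcodes and UMIs have 8 bases each, per the labels' protocols, and each batch has 96 columns. Of the columns, 111 hold 0 UMIs. The 95 spike-in rows were left out of totals. Well numbers recur between batches: 288 kept cells share a number with a cell of another batch, and 5 of them correlate best with that cell, by a margin near 0. No doublet caller was run on these hand-picked cells.

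Members and gene lists were chosen with earlier results of these data known. Sums were fitted in R 4.3.3 with edgeR 4.0.16 (filterByExpr, TMM, 1 fit over all kinds with batch as block; stage fits without block), and DESeq2 1.42.0 was an alternative. Batch is a block because the sums of a batch share 1 batch label. Whether a batch is 1 collection is not stated in the labels. The text names 6 fixed members (Mcm5, Pcna, Rrm2, Clspn, Uhrf1, Ccne2), up to 6 called members per direction with a mean of at least 10 CPM, up to 3 genes of each other list, and the 8 genes most like the members' sum, some of which are not reported here; members named beyond this were chosen after their values were seen. The pipeline was tested on simulated data, where 5 unchanged genes were called. Intervals cover counting error only. Python 3.11.15 with pandas 2.3.3, numpy 2.4.6, scipy 1.17.1 and matplotlib 3.10.9 gave the tables and figures.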

Additional observations from a re-analysis of the deposited data

Results flagged for a closer look

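On the scale of the fit over kinds, Mcm5 in the Prrx1 cells of E10 replicate 2 was at 332 CPM, far above the other 4 batches (185 to 218 CPM), and Ccne2 in the same sum was at 66.9 CPM, above the other 4 (10.1 to 26.3 CPM). Over 21 sets of batches examined for a sample far from the rest, chance gives about 1 in 20.

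The 75 columns that held UMIs but missed the thresholds for genes and UMIs together contained 1933 UMIs of the 37 members among 505523 UMIs, or 3824 CPM, within the range of the kept kinds. Their median depth was 3344 UMIs, so they enter no comparison.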

How the results depend on the processing

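Counts of members called are given against the reported 9 (Alas2), 4 (Gfi1b and Myb), 8 (Sox10) and 5 (Tubb3) versus Prrx1 cells, and 0 for Tubb3 versus Sox10, Alas2 versus Gfi1b and Myb, and the stages. Without the replicate block, they were 2, 0, 1 and 3 in the comparisons with Prrx1 cells. With only cells that passed 1 cut, they were 5 for Alas2, 3 for Sox10, 20 for Tubb3, 10 for Tubb3 versus Sox10 and 1 for Alas2 versus Gfi1b and Myb. Marker cuts set 2 times as high gave 2 for Gfi1b and Myb, 4 for Sox10 and 1 for Tubb3 versus Sox10. Cells thinned to 30000 UMIs gave 5 for Alas2, 2 for Gfi1b and Myb, 9 for Tubb3 and 1 for Alas2 versus Gfi1b and Myb. Total UMIs gave 4 for Alas2, 1 for Gfi1b and Myb, 5 for Sox10 and 3 for Alas2 versus Gfi1b and Myb; without haemoglobin genes the last was 1 and the others were 4, 1 and 5. At least 2 cells in a sum gave 5, 4 and 2 for Alas2, Sox10 and Tubb3, and at least 5 cells gave 0 for Gfi1b and Myb and 1 for Alas2 versus Gfi1b and Myb. DESeq2 gave 1 for Tubb3 versus Sox10 and 1 for the stages in Prrx1 cells. No filter on low counts gave 1 for each of these and 2 for Alas2 versus Gfi1b and Myb. Leaving out each batch gave 3 to 9, 0 to 5, 2 to 5 and 0 to 20 against Prrx1 cells, 0 to 5 for Tubb3 versus Sox10, 0 to 2 for Alas2 versus Gfi1b and Myb, and a median sum of 5583 to 6057 CPM in Gfi1b and Myb cells. The median sum was 5356 CPM in Alas2 cells with haemoglobin left out, and 5683 and 5718 CPM in Dppa5a cells when thinned or passing only 1 cut. The causes were not tested. The total-UMI scalings, the minimum of 2 cells and the removal of matched wells were chosen after seeing the data. No paired analysis was possible for the stages because each batch holds 1 stage and replicate numbers only follow the order of deposit.

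Precision is limited by 2 to 5 sums per kind and by 3 to 38 cells in a sum. No called member changed sign in any alternative, but the members' median for Alas2 cells turned with total UMIs. Some called G2 and M phase genes did change sign. For Tubb3 versus Prrx1, Nek2 and Ckap2l did so in 1 of 17 alternatives each. For Tubb3 versus Sox10, Cdca2 did so in 1 of 17, and Ckap2l and Ube2c in 2 each. Among the values of single members under alternatives, 246 kept their side of the threshold and 145 lost their call.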

Other observations

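Some regulators of the cell cycle that are no members differed widely between kinds. Cyclin D1 (Ccnd1) was at 17.8 ± 22.0 CPM in Alas2 sums and 7.74 ± 9.75 CPM in Gfi1b and Myb sums (SD, n = 3 each), against 189.8 ± 66.1 CPM in Prrx1 sums, with log2 fold changes of −3.75 and −4.88 that passed under all 3 scalings. In Alas2 cells E2f2 (2.77) and cyclin D3 (Ccnd3, 2.13) were higher under TMM, but with total UMIs E2f2 had 1.95 and Ccnd3 1.31 and neither passed. Cdkn1c was lower in Gfi1b and Myb cells, at 54.4 ± 37.7 CPM against 264 ± 12.2 CPM, with a log2 fold change of −2.92 (edgeR adjusted p = 3.66e-09).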
